A study of Mus musculus with 24 samples.

Results

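The genes described here encode precursors of 6 peptides made by neurons of the hypothalamus: Avp, Oxt, Pmch, Hcrt, Trh and Pomc. They were chosen by symbol, as every probe set on the array annotated with exactly 1 gene symbol among these names. That gave 6 of the 18194 genes named on the array, at 7 of its 45101 probe sets, 2 for Pomc and 1 for each other gene. No probe set annotated with several symbols held one of them. Of the 7 probe sets, 6 were bright enough to be kept for the tests across the array, and the second Pomc probe set was not.

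Each gene is transcribed into a precursor protein that is cut by convertases in the secretory pathway, and the peptides are stored in dense core vesicles. Vasopressin (Avp) and oxytocin (Oxt) are made by neurons of the paraventricular and supraoptic nuclei. Melanin-concentrating hormone (Pmch) and hypocretin, also called orexin (Hcrt), are made by separate neurons of the lateral hypothalamus, and thyrotropin-releasing hormone (Trh) and pro-opiomelanocortin (Pomc) by neurons of, among other places, the paraventricular and the arcuate nucleus. The hypothalamus lies medial to the amygdala, and some of these genes have sites of expression elsewhere, such as vasopressin neurons of the medial amygdala.

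Total RNA was measured on 24 Affymetrix mouse arrays, 1 colour each, in mice descended from C57BL/6J and A/J, both inbred strains, and selected for contextual fear conditioning, in which a mouse freezes in a place where it was shocked. There were 4 groups of 6 arrays: hippocampus of animals labelled low freezing (arrays 1 to 6) and high freezing (arrays 7 to 12), and amygdala of animals with the same labels and numbers. Age, sex, the generation of selection and how the tissue was dissected are not given in the sources used here. The labels do not say whether an array holds 1 animal, and the p-values reflect only how these arrays vary, which may be technical.

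The values are linear intensities, in arbitrary units, and differences were tested as log2(intensity + 16), which shrinks the folds of dim probe sets. Array medians lay between 36.9 and 43.6 units, and arrays of 1 group correlated between 0.972 and 0.981 on the log2 scale. The regional labels were set beside marker genes chosen after their values were seen, so the counts are no independent check of the labels. Of 7 markers of the hippocampal fields, all 7 were lower in the amygdala arrays, and of 12 markers of striatum and central amygdala, all 12 were higher. Of these, 2 in each list were bright enough for the filter in 1 region alone and so had to differ. Of 8 markers of basolateral amygdala and cortex, 7 were lower in the amygdala arrays and 1 was higher. Low-freezing amygdala array 4 stood apart from the other amygdala arrays in Avp, and the results that rest on it are given with and without it.

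Avp and Oxt are next to each other on chromosome 2, with no gene between their starts in the RefSeq annotation. The Oxt start used here lies 1650 bases inside the gene as annotated, so its window is not upstream of the whole gene. The 150 bases before the start of Avp, Pmch and Trh, the genes whose amygdala arrays all lay above the hippocampal arrays, are shown with those of Oxt, the neighbour of Avp, to set the regulatory sequence beside the expression values. They are from RefSeq, build GRCm38.p6, 5′ to 3′ along the gene; 6 of 6 genes matched the table. Capitals mark matches, on either strand, of 3 short motifs: CACGTG, an E-box; TGACC, a nuclear receptor half-site; and ATAAA, which overlaps the TATA box.
Avp (chr2:130582589-130582738, minus strand): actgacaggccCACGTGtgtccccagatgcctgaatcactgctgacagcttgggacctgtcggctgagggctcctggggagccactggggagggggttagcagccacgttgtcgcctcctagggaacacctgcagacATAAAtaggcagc
Oxt (chr2:130576019-130576168, plus strand): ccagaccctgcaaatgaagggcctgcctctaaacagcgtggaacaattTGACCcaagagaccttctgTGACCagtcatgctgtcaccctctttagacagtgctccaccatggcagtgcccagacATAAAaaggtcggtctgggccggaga
Pmch (chr10:88090922-88091071, plus strand): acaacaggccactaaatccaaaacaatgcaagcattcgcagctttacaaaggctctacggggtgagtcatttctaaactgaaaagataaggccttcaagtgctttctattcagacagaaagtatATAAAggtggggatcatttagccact
Trh (chr6:92244651-92244800, minus strand): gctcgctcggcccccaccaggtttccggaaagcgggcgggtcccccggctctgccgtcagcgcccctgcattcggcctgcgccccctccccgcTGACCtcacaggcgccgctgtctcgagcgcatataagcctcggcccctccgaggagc
The Avp window held 1 CACGTG, which 4.3% of 32851 promoter windows of this length held. The Oxt window held 2 TGACC and the Trh window 1, a motif held by 23.1% of all windows. ATAAA was found once each in the windows of Avp, Oxt and Pmch, against 24.1% of all windows. No window held more than 2 of the 3 motifs, and these are matches of letters, not binding sites.

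The first comparison asks how the peptide genes differ between the dissected regions. Avp, Pmch, Trh and Pomc were higher in the amygdala arrays than in the hippocampal arrays, by 6.32-, 5.66-, 3.12- and 1.40-fold, and Oxt and Hcrt did not pass the test. These 4 calls among 6 probe sets tested stand against 51.4% of all 27022 probe sets called between the regions, 27.2% higher and 24.2% lower in the amygdala, by limma with Benjamini-Hochberg adjusted p under 0.05. Counted by gene at its brightest probe set, 56.4% were called, 31.8% higher and 24.6% lower. Of the probe sets called, 52.9% were higher in the amygdala, against 39.5% with arrays centred on their median. Among 12491 genes, each at its brightest probe set, Avp had the 28th highest difference, Pmch the 34th and Trh the 191st at this offset. Of the 4 genes called, Avp and Trh were bright enough for the filter in the amygdala alone and so had to differ. Their calls and ranks are therefore no support for a regional pattern of the peptide genes. The size of the differences depended on the offset: with 1 in place of 16 they were 11.6-fold for Avp, 8.22-fold for Pmch, 11.3-fold for Trh and 1.69-fold for Pomc, and with 64 they were 3.17-, 3.30-, 1.61- and 1.18-fold. The 4 calls held at each offset. In bulk tissue, fewer cells of a type and less RNA per cell cannot be told apart, nor can more of either.

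Avp, the precursor of vasopressin, had intensities of 12.7 (lowest), 18.2 (median) and 27.9 (highest) in the low-freezing hippocampus and 4.16, 17.9 and 30.5 in the high-freezing hippocampus. In the amygdala the lowest, median and highest intensities were 134, 175 and 990 in the low-freezing arrays and 115, 166 and 194 in the high-freezing arrays. All 12 amygdala arrays lay above all 12 hippocampal arrays, and the lowest of them was 3.77 times the highest hippocampal array. The difference in mean log2 intensity was 2.66 ± 0.21 (SE; 95% interval 2.22 to 3.10; adjusted p = 1.11e-11, limma). Without low-freezing amygdala array 4 it was 2.46, with an adjusted p of 5.21e-15. The hippocampal mean of 17.9 was below 24.2 units, the lowest mean kept by the brightness filter, so Avp passed the filter through the amygdala alone and had to differ.

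Pmch, the precursor of melanin-concentrating hormone, had lowest, median and highest intensities of 9.00, 27.6 and 49.7 in the low-freezing hippocampus and 19.3, 30.4 and 37.2 in the high-freezing hippocampus. In the amygdala they were 82.8, 389 and 524 in the low-freezing arrays and 59.7, 188 and 484 in the high-freezing arrays. The regions did not overlap here either, but the gap was narrow, since the lowest amygdala array was 1.2 times the highest hippocampal array. The log2 difference was 2.50 ± 0.27 (SE; 95% interval 1.94 to 3.06; adjusted p = 6.46e-09, limma).

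Trh, the precursor of thyrotropin-releasing hormone, had lowest, median and highest intensities of 1.08, 3.15 and 18.1 in the low-freezing hippocampus and 1.84, 2.18 and 4.29 in the high-freezing hippocampus. In the amygdala they were 30.9, 47.9 and 72.0 in the low-freezing arrays and 33.2, 45.6 and 55.4 in the high-freezing arrays. All amygdala arrays lay above all hippocampal arrays, with the lowest at 1.70 times the highest hippocampal array. The log2 difference was 1.64 ± 0.12 (SE; 95% interval 1.40 to 1.88; adjusted p = 6.07e-13, limma). The overall mean of Trh was 24.9 and its hippocampal mean 3.94, against a lowest mean kept of 24.2, so like Avp it passed the filter through the amygdala alone and had to differ. The calls of Avp and Trh are therefore no support for the others. Pmch and Pomc, with hippocampal means of 29.1 and 33.7, were above that level in both regions. An amygdala above the hippocampus with no overlap was seen in 7.2% of the probe sets tested.

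Pomc, the precursor of corticotropin, melanocortins and beta-endorphin, overlapped between the regions. Its brighter probe set had lowest, median and highest intensities of 6.32, 20.1 and 51.8 in the low-freezing hippocampus and 25.8, 39.5 and 58.9 in the high-freezing hippocampus. The values were 27.9, 45 and 58.1 in the low-freezing amygdala and 45.1, 49.5 and 75.2 in the high-freezing amygdala. Only 2 of 12 amygdala arrays lay above every hippocampal array, and these were high-freezing arrays 8 and 9. The log2 difference between the regions was 0.49 ± 0.15 (SE; 95% interval 0.17 to 0.80; adjusted p = 0.00937, limma). The second Pomc probe set, below the brightness filter, had group means from 11.8 to 21.0 units and a log2 difference of 0.21 ± 0.16 (SE; adjusted p = 0.354 in the limma fit without the filter), so the probe sets differ in whether they pass the test.

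Oxt, the precursor of oxytocin, did not pass the test between the regions. Its lowest, median and highest intensities were 66.7, 97.9 and 106 in the low-freezing hippocampus and 76.3, 92.1 and 158 in the high-freezing hippocampus. They were 74.5, 117 and 179 in the low-freezing amygdala and 91.9, 121 and 162 in the high-freezing amygdala. The ranges overlapped, with 2 of 12 amygdala arrays above every hippocampal array, and the log2 difference of 0.26 ± 0.12 (SE; 95% interval 0.03 to 0.50; adjusted p = 0.0581, limma) did not pass. It passed in 5 of the 24 fits that left out 1 array. The adjusted p (limma) was 0.0437 and 0.0152 without high-freezing hippocampal arrays 10 and 11. It was 0.0163 without low-freezing amygdala array 2, and 0.0456 and 0.0359 without high-freezing amygdala arrays 8 and 11. Other settings moved it away from the threshold. The adjusted p was 0.120 without low-freezing amygdala array 4, and 0.106 with the array number as a fixed block. It was 0.122 after quantile normalization and 0.169 with arrays centred on their median.

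Hcrt, the precursor of the hypocretins, showed no regional difference past the test. Its lowest, median and highest intensities were 31.8, 41.2 and 57.6 in the low-freezing hippocampus and 30.7, 42.9 and 56.1 in the high-freezing hippocampus. They were 26.6, 42.2 and 70.4 in the low-freezing amygdala and 29.3, 48.8 and 56.6 in the high-freezing amygdala. The log2 difference was 0.03 ± 0.12 (SE; adjusted p = 0.840, limma), and its 95% interval, -0.20 to 0.27, does not reach the differences of Avp, Pmch or Trh. Its sign is not settled, since it was -0.04 both after quantile normalization and with arrays centred on their median. Pmch and Hcrt, both genes of the lateral hypothalamus, therefore differed in their regional result, and this difference between genes was not tested. The mean Hcrt intensity, 45.2 over amygdala arrays and 43.3 over hippocampal ones, was close to the array medians of 36.9 to 43.6. Whether the Hcrt probe set read more than background in either region was not tested, which limits the contrast with Pmch. Trh and Pomc averaged 45.9 and 50.5 units over the amygdala arrays, near the level of Hcrt, and 3.94 and 33.7 over the hippocampal ones. Whether their probe sets read more than background was not tested either.

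**Figure D1:**
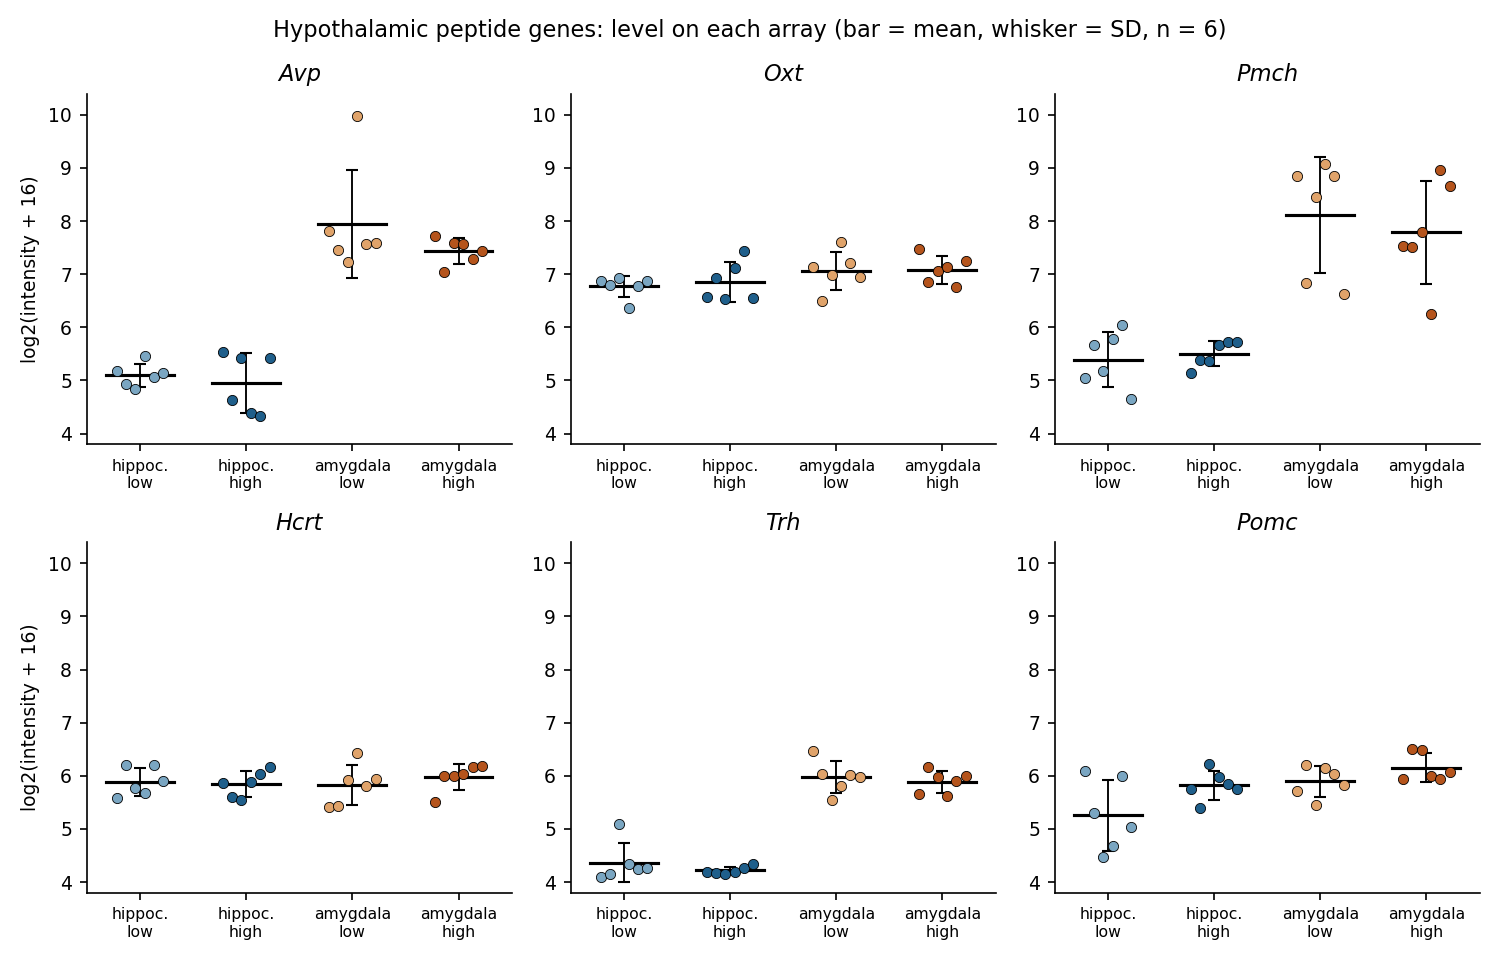
Level of each peptide gene on every array, as log2(intensity + 16), in the low- and high-freezing hippocampus and amygdala; points are arrays in order of their number, bars are means and whiskers SDs over 6 arrays, and Pomc is shown at its brighter probe set. The amygdala arrays of Avp, Pmch and Trh all lie above the hippocampal arrays, those of Oxt, Hcrt and Pomc overlap with them, and 1 amygdala array stands far above the others for Avp.

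In the order of group means, Avp went from 17.1 ± 12.3 and 18.6 ± 5.37 in the high- and low-freezing hippocampus to 159 ± 28.4 and 307 ± 336 in the high- and low-freezing amygdala (SD, n = 6 each). Only the step between the regions exceeded the SDs of both neighbouring groups. Pmch had the same kind of order, with 28.4 ± 15.4 and 29.9 ± 7.35 in the low- and high-freezing hippocampus and 246 ± 159 and 322 ± 189 in the high- and low-freezing amygdala. Trh went from 2.65 ± 0.957 and 5.23 ± 6.42 in the high- and low-freezing hippocampus to 43.7 ± 8.58 and 48.1 ± 13.6 in the high- and low-freezing amygdala. For each of these genes, neighbours within a region differed by less than the larger of their SDs.

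The Pomc means ran from 26.0 ± 19.5 in the low-freezing hippocampus through 41.4 ± 11.0 in the high-freezing hippocampus and 44.6 ± 11.6 in the low-freezing amygdala to 56.4 ± 14.0 in the high-freezing amygdala (SD, n = 6 each). Each step was smaller than the larger SD of the neighbouring groups, though not always than the smaller SD. The Oxt means lay between 94.0 ± 14.1 and 122 ± 25.6 and the Hcrt means between 42.4 ± 16 and 48.0 ± 9.92, with no step beyond the spread.

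Genes with known expression in hypothalamic neurons were read beside the peptide genes. Of 29 such genes listed, 24 were on the array and 10 were bright enough to be tested, and all 10 were higher in the amygdala arrays, with a median log2 difference of 1.35 against 0.0371 over all genes tested. Of the 10, 2 passed the filter through the amygdala alone and had to differ; the other 8 had a median of 1.35. The largest were Baiap3 (5.29-fold), a protein of dense core vesicle trafficking, Dlk1 (3.02-fold), and Gal (2.88-fold), the precursor of the peptide galanin. The summed intensity of the 24 genes was 2286 to 3501 units in the amygdala arrays and 1156 to 1344 in the hippocampal arrays, with no overlap. This sum rests mostly on its brightest genes, Zcchc12, Baiap3 and Hap1. They averaged 1281, 404 and 383 units in the amygdala and 581, 62.2 and 263 in the hippocampus. Of the transcription factors of hypothalamic neurons on the list, Otp was tested and was higher in the amygdala, at 54.0 against 29.1 units (log2 difference 0.69, adjusted p = 0.000341, limma). The others on the array were too dim to be tested, among them 8 whose means follow. In the amygdala and the hippocampus these averaged 27.9 and 20.3 units for Sim1, 15.7 and 6.91 for Rax, 13 and 7.67 for Nr5a1, 11.6 and 11.1 for Nkx2-1, 7.65 and 10.3 for Fezf1, 6.71 and 7.51 for Hmx3, 3.21 and 4.95 for Hmx2 and 3.12 and 5.69 for Six6.

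Markers of other tissue near the amygdala moved with the same comparison. Of 10 tested markers of thalamus and habenula, 8 were higher and 2 lower in the amygdala arrays. The higher ones were led by Tnnt1 (7.10-fold), Ramp3 (5.75-fold) and Synpo2 (4.48-fold), and the lower ones were Lhx9 (2.42-fold) and Calb2 (1.48-fold). Of the 10, 2 passed the filter through 1 region alone and had to differ, Tnnt1 through the amygdala and Lhx9 through the hippocampus. Of 13 markers of the choroid plexus, the ventricular epithelium that secretes cerebrospinal fluid, all 13 were higher. Their summed intensity was 15968 to 23085 units in the amygdala against 2219 to 14103 in the hippocampus. Most of this sum was 1 gene, Ttr, with means of 14680 and 6545 units. Of the 13, 5 passed the filter through the amygdala alone. Of 7 oligodendrocyte markers, all 7 were higher. Of 3 tested markers of the medial amygdala, which itself holds vasopressin neurons, Lhx6 and Esr1 were higher, by 1.23- and 1.31-fold (Esr1 not after quantile normalization or with arrays centred on their median, adjusted p = 0.0789 and 0.0807, limma), and Moxd1 was at 122 against 118 units. Ucn3 and Greb1, also on that list, were too dim to be tested. They averaged 9.22 and 30.9 units in the amygdala and 1.84 and 9.33 in the hippocampus. The part of any of these tissues in the higher Avp, Pmch and Trh was not tested.

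Markers of the pituitary, the main site of Pomc expression outside the brain, were dim. All 8 pituitary markers on the array fell below the brightness filter, among them the hormone genes Gh at 13.3 units and Prl at 10.2 units in the amygdala. The summed pituitary intensity was 49.9 to 123 units in the amygdala and 40.4 to 133 units in the hippocampus, which overlap.

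Genes of the machinery that makes these peptides were called in both directions. Of 13 tested genes of peptide processing and dense core vesicles, 4 were higher and 4 lower in the amygdala arrays, with a median log2 difference of -0.07. Over all genes tested, 31.8% were higher and 24.6% lower. The lower ones included Cadps2 (2.98-fold), a priming factor for vesicle release, and Chgb (2.41-fold), a granin, while Chga, another granin, was 1.59-fold higher. The convertase gene Pcsk1 was at 39.9 ± 9.02 units in the hippocampal and 37.9 ± 11.2 in the amygdala arrays, and Cpe, which trims the cut peptides, was at 10310 ± 1478 and 9781 ± 675 (SD, n = 12 each); neither passed, though Cpe was lower after quantile normalization (adjusted p = 5.69e-09, limma).

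Among genes of peptide degradation, 2 of 5 were higher and 1 was lower. The lower one was Trhde, the ectoenzyme that degrades thyrotropin-releasing hormone, at 145 ± 29.0 units in the hippocampal and 34.4 ± 4.31 in the amygdala arrays (SD, n = 12 each; 3.16-fold lower; adjusted p = 6.88e-15, limma). Mme, the peptidase neprilysin, was 1.91-fold higher and Prcp, a carboxypeptidase, 1.26-fold higher, a call that Prcp lost with arrays centred on their median (adjusted p = 0.0557, limma). Prcp was also called for freezing in the amygdala, where its mean was 33.7 units in low-freezing arrays and 74.8 in high-freezing ones (adjusted p = 0.0295, limma). Over all probe sets tested, 0.0555% were called for freezing in the amygdala. None was with each region fitted alone, so the Prcp freezing call was lost there.

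Receptors for these peptides were mostly dim. Of 15 listed, 14 were on the array and 4 were tested, of which 1 was lower and none higher in the amygdala. The lower one was Mchr1, the receptor of melanin-concentrating hormone, at 97.0 ± 17.5 units in the amygdala against 120 ± 12.1 in the hippocampus (SD, n = 12 each; 1.21-fold lower; adjusted p = 0.00400, limma). Trhr was at 98.1 and 85.7 units, Oxtr at 41.6 and 43.7 and Mc3r at 24.8 and 25.4, and none of these passed. The vasopressin receptors Avpr1a, Avpr1b and Avpr2 and the hypocretin receptors Hcrtr1 and Hcrtr2 were below the filter, with amygdala means of 3.99 to 18.8 units.

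The comparison of freezing labels asks whether the peptide genes differ between animals that froze little and animals that froze much. In the amygdala no peptide gene passed: 0 of 6 probe sets were called, against 0.0555% of all 27022 probe sets (15 called; 2905 had an unadjusted p under 0.05). The log2 difference, high minus low freezing, was -0.50 for Avp (95% interval -1.12 to 0.12), -0.33 for Pmch (-1.12 to 0.47), -0.09 for Trh (-0.43 to 0.24), 0.02 for Oxt (-0.31 to 0.36), 0.16 for Hcrt (-0.18 to 0.49) and 0.26 for Pomc (-0.19 to 0.70). Adjusted p ran from 0.592 for Avp to 0.979 for Oxt (limma). The intervals of Avp and Pmch were the widest, and a difference of 1 on the log2 scale, in the direction of lower levels in the high-freezing arrays, lies inside both. With 1 array left out, the Pmch difference ran from -0.63 (without low-freezing amygdala array 6) to -0.02 (without high-freezing amygdala array 10).

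An exact permutation test of the 6 high- against the 6 low-freezing amygdala arrays, over 924 splits and two-sided, gave p = 0.253 for Avp, 0.574 for Pmch, 0.565 for Trh, 0.907 for Oxt, 0.407 for Hcrt and 0.143 for Pomc. It gave p = 0.312 for the second Pomc probe set, and adjusted over these 7 probe sets the exact permutation p ran from 0.669 to 0.907. All 6 high-freezing arrays lay above the median of the low-freezing arrays for the brighter Pomc probe set, and 2 of 6 did for Avp. For the second Pomc probe set 1 of 6 did. Its log2 difference, high minus low, had the opposite sign, at -0.24 against 0.26 for the brighter one. The Avp difference rested on 1 array: without low-freezing array 4 it was -0.09 on the log2 scale, and the low-freezing mean was 170 ± 26.5 units (SD, n = 5), against 159 ± 28.4 in the high-freezing arrays.

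In the hippocampus 0 of 6 were called as well, against 0.0518% of all probe sets (14 called; 3192 with an unadjusted p under 0.05). The Pomc difference had the smallest p of the 6. Pomc was 51.8, 23.4, 6.32, 9.53, 48.1 and 16.8 units in low-freezing arrays 1 to 6, and 37.7, 25.8, 58.9, 47.1, 41.2 and 37.9 units in high-freezing arrays 7 to 12. Of the low-freezing arrays, 4 lay below every high-freezing array and 2 among the highest, so the groups overlap. The log2 difference, high minus low, was 0.56 ± 0.22 (SE; 95% interval 0.11 to 1.00; unadjusted p = 0.0160, adjusted p = 0.294, limma), and the exact permutation test gave p = 0.0996 (n = 6 each, adjusted p = 0.697). For the second Pomc probe set the difference was 0.22 ± 0.22 (SE, adjusted p = 0.807 in the limma fit without the filter). Its exact permutation p was 0.377. The differences of the other 5 genes lay between -0.14 and 0.11.

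Whether the freezing difference itself differed between the regions was tested as an interaction. No probe set passed, 0% of 27022, and 1640 had an unadjusted p under 0.05; the smallest adjusted p was 0.715. The peptide genes had adjusted p values of 0.923 to 0.983 (limma), with differences from -0.44 for Pmch to 0.19 for Hcrt.

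**Figure D2:**
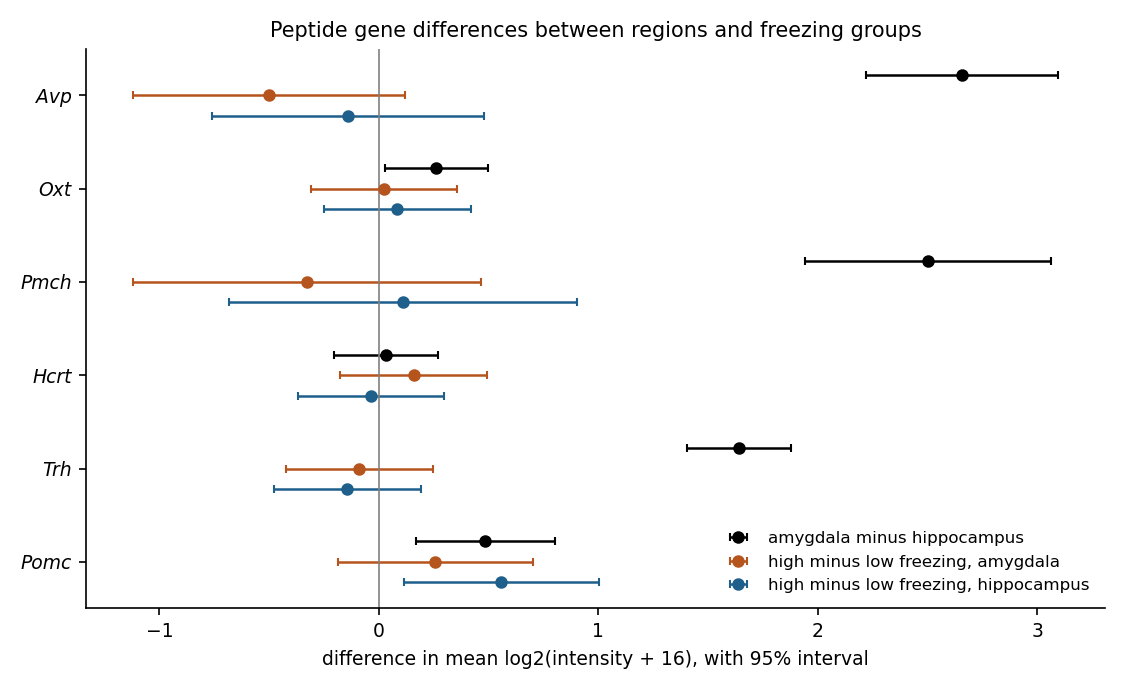
Difference in mean log2(intensity + 16) of each peptide gene, with its 95% interval, for amygdala minus hippocampus (black) and for high minus low freezing in the amygdala (orange) or the hippocampus (blue). The regional differences of Avp, Pmch and Trh lie at 2.66, 2.50 and 1.64, and every freezing interval crosses 0 except that of Pomc in the hippocampus, 0.11 to 1.00, which did not pass after adjustment.

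Array by array within the amygdala, Pmch varied more than nearly all other probe sets. The SD of Pmch within the freezing groups was 1.03 on the log2 scale, above that of 99.94% of the probe sets tested, and that of Avp was 0.74, above 99.73%; the median of all was 0.20. The Avp value rested on low-freezing array 4: without it the SD was 0.23, above 61.6% of the probe sets, while that of Pmch was 1.03, above 99.94%. The SDs of Oxt, Hcrt, Pomc and Trh were 0.32, 0.32, 0.28 and 0.26. In the hippocampus the SD of Pmch was 0.41 and that of Avp 0.43, above 94.7% and 95.7% of the probe sets. There Pomc had the largest SD of the 6 genes, 0.51, above 98.1%. The hippocampal SDs of Oxt, Trh and Hcrt were above 83.85%, 76.04% and 72.79%.

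The pattern of variation differed between the genes. Avp was 207, 160, 134, 990, 175 and 176 units in low-freezing amygdala arrays 1 to 6 and 194, 115, 175, 174, 141 and 157 units in high-freezing arrays 7 to 12. A single array stood apart, and the other 11 lay within 115 to 207 units, with a mean of 164 ± 26.8 (SD, n = 11). Pmch was 445, 98.6, 335, 524, 444 and 82.8 units in low-freezing arrays 1 to 6 and 170, 167, 206, 59.7, 484 and 390 units in high-freezing arrays 7 to 12. Its values spread over the whole range in both freezing groups: arrays 10, 6 and 2 were lowest, and arrays 4, 11, 1 and 5 highest.

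Trh was 72.0, 50, 30.9, 40.3, 48.4 and 47.4 units in low-freezing amygdala arrays 1 to 6 and 34.3, 55.4, 47.3, 33.2, 43.8 and 48.2 units in high-freezing arrays 7 to 12. Its highest array was low-freezing array 1 and its lowest low-freezing array 3. Oxt was 124, 74.5, 110, 179, 132 and 108 units in arrays 1 to 6 and 162, 99.3, 117, 124, 91.9 and 136 units in arrays 7 to 12. Hcrt was 26.6, 27.2, 44.5, 70.4, 39.9 and 45.5 units in arrays 1 to 6 and 29.3, 48.0, 48.2, 49.3, 56.2 and 56.6 units in arrays 7 to 12. For both of these genes low-freezing array 4 was the highest.

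Pomc was 36.8, 58.1, 27.9, 54.9, 49.5 and 40.4 units in low-freezing amygdala arrays 1 to 6 and 45.6, 75.2, 73.3, 47.9, 45.1 and 51.1 units in high-freezing arrays 7 to 12. Its order differed from that of the other genes. Low-freezing array 4 was the highest of the 12 for Avp, Oxt, Pmch and Hcrt, the 4th highest for Pomc and the 9th for Trh. For 4 of the 6 genes it was among the 3 highest arrays; low-freezing array 1 was so for 3 genes and no other array for more than 2.

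**Figure D3:**
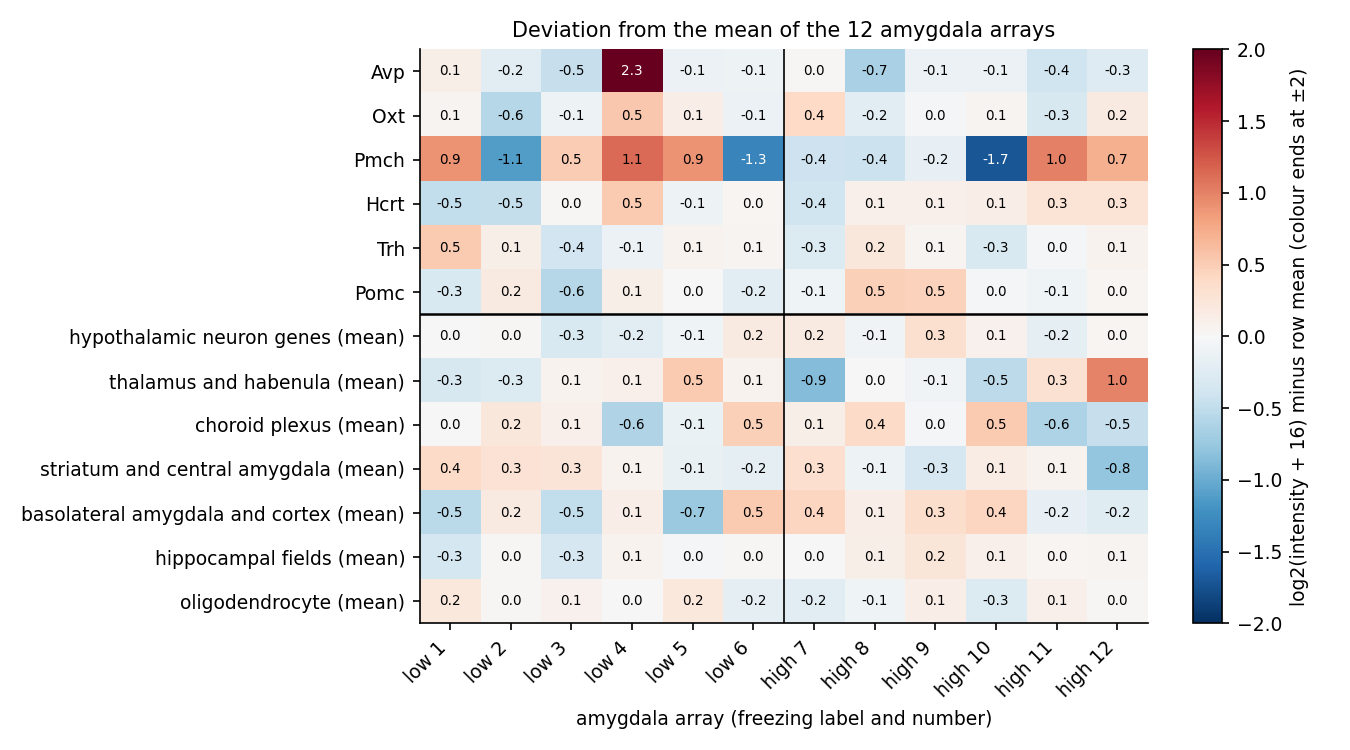
Deviation of each amygdala array (columns, low freezing 1 to 6 and high freezing 7 to 12) from the mean of the 12 arrays in log2(intensity + 16), for the 6 peptide genes above the line and for the mean of 7 marker lists below it; red is higher and blue lower. Low-freezing array 4 is high for Avp, Pmch, Oxt and Hcrt, and the Pmch row runs opposite to the choroid plexus row.

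The peptide genes were then compared with each other across the 12 amygdala arrays. None of the 15 pairs passed after adjustment. Avp and Oxt had the highest correlation, with Pearson's r of 0.654 (permutation p = 0.016, adjusted p = 0.24) and Spearman's rho of 0.615 (permutation p = 0.0374, adjusted p = 0.561). It was 0.512 without the 2 arrays farthest from the median of Avp, low-freezing array 4 and high-freezing array 8, and 0.769 and 0.788 within the low- and the high-freezing arrays. Avp and Pmch had r of 0.321 (permutation p = 0.347, adjusted p = 0.697), which turned to -0.202 without the same 2 arrays. Pmch and Hcrt had r of 0.263 (permutation p = 0.406, adjusted p = 0.697).

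Each peptide gene was also compared with the mean level of each of 11 gene lists, 66 pairs in all, of which 2 passed. The first was Pmch with the choroid plexus list, in opposite directions: Pearson's r was -0.854 (permutation p = 0.00041, adjusted p = 0.0271) and Spearman's rho -0.923 (permutation p = 5e-05, adjusted p = 0.0033). The choroid plexus mean was lowest in high-freezing array 11 and low-freezing array 4, at 8.26 and 8.27 on the log2 scale, where Pmch was 484 and 524 units. It was highest in high-freezing array 10 and low-freezing array 6, at 9.39 and 9.33, where Pmch was 59.7 and 82.8 units.

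The relation of Pmch to the choroid plexus held within both freezing groups, with r of -0.82 in the low- and -0.946 in the high-freezing arrays. Without the 2 arrays farthest from the median of the list, arrays 4 and 11, r was -0.822, and with any 1 array left out it lay between -0.82 and -0.89. All 13 choroid plexus genes had r below 0 with Pmch, with a median of -0.805; they ran from -0.844 for Kcnj13, a potassium channel, to -0.0783 for Ttr, transthyretin. The genes of a list share their arrays and are not independent. Pmch had r of 0.252 with the array medians (permutation p = 0.422). In the hippocampal arrays, where Pmch was dim, its r with the choroid plexus list was 0.413 (permutation p = 0.181; rho 0.517, permutation p = 0.0878).

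Other lists moved with Pmch without passing. The basolateral amygdala and cortex list had r of -0.745 with Pmch and the oligodendrocyte list 0.735 (adjusted permutation p = 0.132 each). The list of other hypothalamic neuron genes had r of -0.572 with Pmch (permutation p = 0.0535, adjusted p = 0.493), and 9 of its 10 genes were below 0; the other was Otp, at 0.411. What these relations come from was not tested.

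The second pair was Pomc with the list of hippocampal field markers, with Pearson's r of 0.831 (permutation p = 0.00143, adjusted p = 0.0472) and Spearman's rho of 0.769 (adjusted permutation p = 0.166). Without low-freezing arrays 1 and 3, which were lowest for the list, r was 0.726, and within the low- and high-freezing arrays it was 0.84 and 0.81. The Pearson call was lost with an offset of 64 (adjusted permutation p = 0.102) and after quantile normalization (adjusted permutation p = 0.0502). Of the 7 list genes, 5 had r above 0 with Pomc, from -0.311 for Prox1, a dentate gyrus factor, to 0.854 for Fibcd1. The summed level of the list in the amygdala, 203 to 329 units, was far below that in the hippocampus, 1661 to 2161 units. Some list genes were dim there: Lct and Tdo2 averaged 9.55 and 9.99 units, and Fibcd1 ran from 1.67 to 74.3 units. Pomc had r of 0.555 with the array medians (permutation p = 0.0614). In the hippocampal arrays its r with the list was -0.235 (permutation p = 0.462) and rho was -0.217 (permutation p = 0.5). Only the brighter Pomc probe set was compared with the lists.

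**Figure D4:**
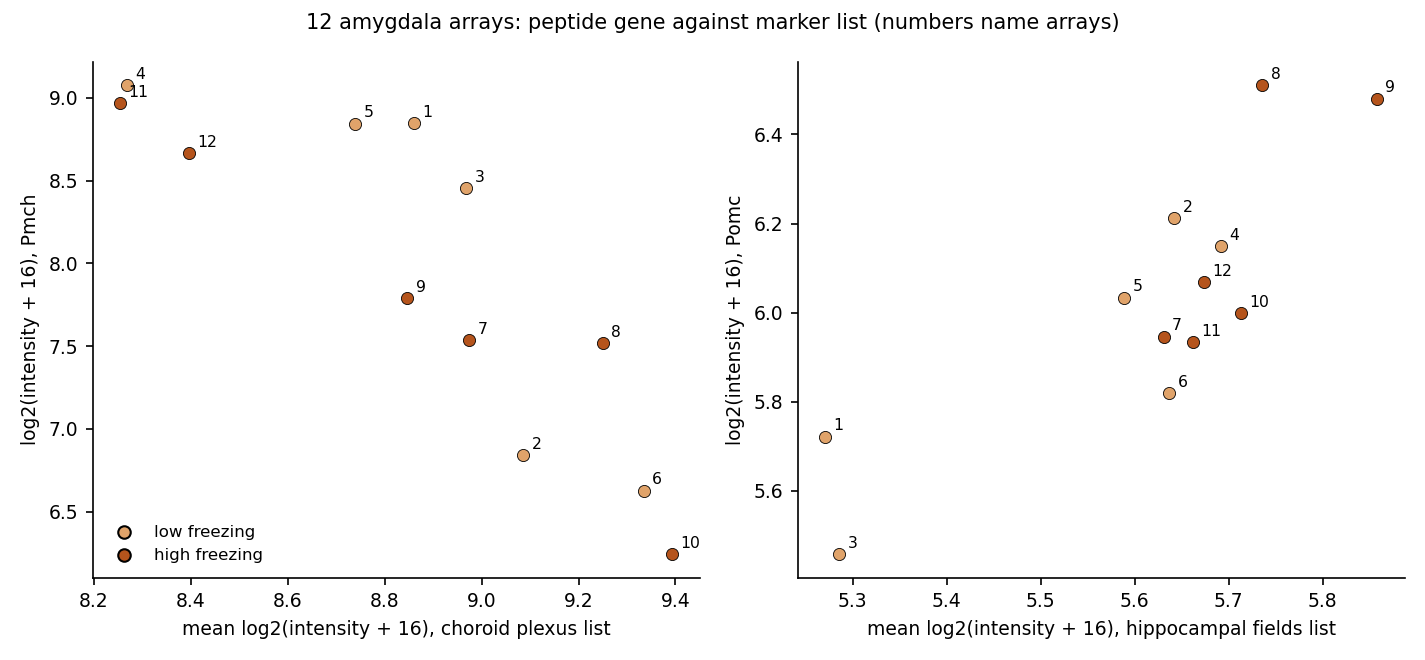
Peptide gene against the mean of a marker list on the 12 amygdala arrays, both as log2(intensity + 16): Pmch against 13 choroid plexus genes on the left and Pomc against 7 hippocampal field genes on the right; points are arrays, named by number and coloured by freezing label. Pmch falls as the choroid plexus mean rises (r = -0.854), and Pomc rises with the hippocampal field mean (r = 0.831), where low-freezing arrays 1 and 3 lie apart at the low end.

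The 5 genes most like each peptide gene were taken by Pearson's r over the 12 amygdala arrays among 12490 others and are a description with no test. For Pmch they were Plekhb2 (0.904), Pdzd8 (0.896), Vmp1 (0.893), Tmem70 (0.887) and Nqo2 (0.878). For Trh they were Macrod1 (0.839), Plekho1 (0.838), Grem1 (0.825), Igsf1 (0.800) and Tle5 (0.798). For Oxt they were Ccdc186 (0.855), Epn1 (0.835), Lrrc56 (0.823), Clp1 (0.820) and Csnk1e (0.819). No peptide gene was among the 5 most like another. For Hcrt they were Frrs1l (0.899), Lypla2 (0.851), Cdc25b (0.849), Scai (0.828) and Shisa6 (0.824), and for Pomc they were Gpr27 (0.885), Atp2c1 (0.880), Lamc3 (0.871), Ccdc122 (0.862) and Nop16 (0.859).

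For Avp the most alike were Acsl5 (0.821), Dcaf11 (0.819), Tpgs1 (0.790), Acp1 (0.786) and Nasp (0.783). These values rested on low-freezing array 4. Without it they were 0.524 for Acsl5, 0.410 for Dcaf11, -0.0662 for Tpgs1, 0.246 for Acp1 and 0.640 for Nasp. For the other 5 peptide genes, the values without that array lay between 0.752 and 0.917.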

How the data were processed

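The authors deposited 1 linear intensity value per probe set and array, made with software not given in the sources used here. With the highest and lowest 2% of its intensities left out, every array averaged 150, and no further normalization was applied. Precision is limited by 6 arrays per group.

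Intensities were tested as log2(intensity + 16), after leaving out 64 control probe sets and the dimmest 40% by mean intensity. A model with 1 mean per group over 24 arrays was fitted with limma 3.58.1 (R 4.3.3; intensity trend, two-sided, Benjamini-Hochberg over 27022 probe sets, threshold 0.05), after being tested on simulated data. Genes were represented by their brightest probe set, 12491 in all. Correlations used 100000 resamples, and adjustment ran within the 15 and the 66 pairs.

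Symbols came from the platform annotation; 34958 probe sets had 1, 932 several and 9211 none. The genes, the 12 lists and the tests were chosen with earlier results of these data known. Named were all members, the 5 most alike genes of each, and up to 3 genes per list with the largest differences. List members named without passing, and the markers used to check tissue, were chosen after their values were seen. Alternatives changed the offset, scaling, filter, variance prior, weights, samples and replicate block; the spread without 1 array and the lists without genes kept through 1 region were added after seeing the data.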

Additional observations from a re-analysis of the deposited data

Results flagged for a closer look

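Within a group of 6 arrays, a value was singled out where its gap to the next array exceeded the 95% critical value of Dixon's test, as a share of the group's range, both on the log2(intensity + 16) scale. Of 28 groups of 6 (7 probe sets in 4 groups), 4 held such a value; chance gives about 1 in 20. Avp in low-freezing amygdala array 4 was 990 units, against 207 in the next highest array, a gap of 0.792 of the range. Oxt in low-freezing hippocampal array 4 was 66.7 units, against 94.3 in the next lowest array (0.742). Hcrt in high-freezing amygdala array 7 was 29.3 units, against 48.0 in the next lowest array (0.733). Trh in low-freezing hippocampal array 3 was 18.1 units, against 4.19 in the next highest array (0.759). The array with the high Trh was also the lowest for Pomc in its group, at 6.32 units. The causes were not tested.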

How the results depend on the processing

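The regional calls of Avp, Pmch, Trh and Pomc held in every fit in which the probe set was tested, with adjusted p at most 0.0248 for Pomc, while the folds moved with the offset as given above. With the dimmest 60% left out, 2 members were called, because Trh, Hcrt and Pomc were then not tested. With a filter on the mean log2 value, chosen after seeing the data, Trh was not tested and 3 were called. Calls numbered 4 to 5 when 1 array was left out, and 13580 to 13784 over all probe sets. No member was called for freezing or the interaction in any fit.

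Calls over all probe sets for freezing in the amygdala, 15, fell to 2 without the intensity trend and to 0 with each region fitted alone, and ranged from 2 (without low-freezing array 1) to 56 (without low-freezing array 6) with 1 array left out. Those in the hippocampus, 14, were 9 with an offset of 1, 6 without the filter, 5 without the trend, 24 with array weights and 22 with the region alone, and ranged from 0 (without low-freezing array 5) to 33 (without low-freezing array 2). Of the pairs of members and lists, 1 passed with an offset of 64 and 1 after quantile normalization.

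Signs turned only for differences that had not passed. The Hcrt regional difference was -0.037 after quantile normalization and -0.043 with arrays centred on their median. The Oxt amygdala freezing difference was -0.00204 and -0.019 under the same settings, and the Trh interaction was -0.0034 with an offset of 64. With 1 array left out, the log2 differences that turned ranged from -0.029 to 0.080 (Hcrt, region), -0.18 to 0.0061 (Trh) and -0.089 to 0.13 (Oxt) for amygdala freezing, -0.20 to 0.00088 (Trh), -0.099 to 0.027 (Hcrt), -0.033 to 0.15 (Oxt) and -0.041 to 0.24 (Pmch) for hippocampal freezing, and -0.091 to 0.15 (Trh), -0.17 to 0.056 (Oxt) and -0.50 to 0.048 (Avp) for the interaction. Where not said, the cause was not tested.

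Hippocampal and amygdala arrays share numbers. The deviations of same-numbered arrays correlated between -0.079 and 0.084, and 4 of 12 arrays correlated best with their own number. As the arrays are from different tissues, this cannot tell whether same-numbered arrays come from the same animal. The main model does not pair them. With the number as a random block, 14019 probe sets were called between regions, and 13814 with a fixed block, against 13886; 4 members were called with either. Averaging a gene's kept probe sets could not differ from the main setting, since each member had 1.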
